A study of Mus musculus with 9 samples.

Results

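The genes described here are 39 genes of cortical excitatory neurons, the glutamatergic projection neurons of the cerebral cortex, measured in sorted cells of the embryonic mouse forebrain. They form a named list of transcription factors, RNA-binding proteins, cytoskeletal, adhesion and synaptic proteins and signalling proteins found in these neurons. Expression by cell type was not measured, so the name of the list does not mean that each gene is specific to these neurons. The members were chosen by name with results of these libraries already known, the fold changes between the 3 groups among them. No threshold was set, and which of these measured values led to which gene is not recorded. All 39 were found by symbol among the 53379 gene identifiers of the count tables, and all 39 passed the filter on low counts that left 19572 genes for testing. No member dropped out, so counts below are over the full list.

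RNA was sequenced from GFP-positive cells sorted from C57Bl6DBa2 mouse embryos at E16.5, where E counts embryonic days. Plasmids had been brought into the forebrain in utero by electroporation at E14.5, so 2 days lay between. The 9 libraries formed 3 groups of 3. The GemC1 group received pCAGGS-GemC1, the Mcidas group received pCAAGS-Mcidas as the labels spell it, and the GFP group received the H2B-GFP reporter, a green fluorescent histone, without either factor. The series states as its question how GemC1 starts the fate of multiciliated cells. Per the labels all 3 groups went through the same electroporation and sort, and they give no number of embryos per library and no litters. Expression from such plasmids is not restricted to a cell type by a tissue-specific promoter, so each library holds whatever cells kept the label for 2 days.

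GemC1 and Mcidas are nuclear proteins of the geminin family that switch on the genes of multiciliated cells, which in the brain are the ependymal cells lining the ventricles. In the same embryonic cortex, radial glia divide and give rise to excitatory neurons, directly or through intermediate progenitors. Proneural basic helix-loop-helix factors start this path, factors such as Neurod1, Neurod2, Neurod6 and Bhlhe22 carry it on in young neurons, and Tbr1, Bcl11b, Fezf2, Sox5, Cux1, Cux2, Pou3f2, Pou3f3 and Rorb divide the neurons into classes by layer and projection. Cytoskeletal proteins such as Dcx and Map2, guidance receptors and synaptic proteins follow as the neurons migrate, grow axons and connect.

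Each library held between 22914704 and 41163917 counts, and a count of 3 corresponded to between 0.0729 and 0.131 CPM (counts of a gene relative to the scaled library total). The introduced genes matched the labels: Gmnc, the gene of GemC1, was at 223.2 to 317.3 CPM in the GemC1 libraries and at most 0.26 CPM elsewhere, and Mcidas was at 387.5 to 596.9 CPM in the Mcidas libraries, 60.3 to 76.8 CPM in the GemC1 libraries and at most 0.69 CPM in the GFP libraries. The labels call the cells neural progenitor cells. Transcripts of radial glia and of postmitotic neurons were both present in every library. In the GFP libraries the 28 listed radial glia genes summed to between 2531 and 3353 CPM, while Dcx, a microtubule protein of migrating neurons, stood at 1114 ± 58.8 CPM (SD, n = 3). In bulk RNA of this kind, fewer neurons and less neuronal RNA per cell cannot be told apart, which holds for every difference below. Separate litters or surgeries are not stated for the replicates, so p-values measure only the spread between these samples, which may be technical. In the names of the deposited tables the year given for Mcidas differs from that of both other groups. If the year stands for a batch, batch and Mcidas cannot be told apart.

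The level of each gene in cells with the reporter alone was compared per kilobase of exon, since longer transcripts collect more reads. Neurod6, a bHLH factor of young excitatory neurons, was highest, at 395 ± 57.7 CPM per kb (SD, n = 3). Sox11, an HMG-box factor of newborn neurons, followed at 198 ± 42.5 CPM per kb and Neurod2 at 151 ± 13.8 CPM per kb. The levels of Sox11 and Neurod2 lay within about their combined spread of each other, and Neurod6 lay above both. Neurod1 at 88.5 ± 10.3, Dcx at 88.0 ± 4.65, Pou3f3 at 82.6 ± 8.51 and Tbr1 at 80.2 ± 8.81 CPM per kb came next and did not differ beyond their spread. At the low end, Mef2c stood at 1.35 ± 0.0964 CPM per kb, Nyap2 at 1.17 ± 0.224, and the neurofilament genes Nefm and Nefl at 0.870 ± 0.0544 and 0.162 ± 0.0844 CPM per kb. Slc17a7, which codes for the vesicular glutamate transporter of mature cortical neurons, reached 3.06 ± 0.404 CPM per kb, and Fezf2, a factor of subcerebral projection neurons, 6.29 ± 1.59 CPM per kb. By merged exons, the most abundant members per length were therefore transcription factors of early neuronal life and Dcx. With the length of the longest transcript instead, 9 of the 10 highest genes were again among the 10 highest, but their order changed. Map2, a cytoskeletal gene, then stood at 164 CPM per kb, above Neurod2 at 151, where merged exons gave it 62.4.

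**Figure D1:**
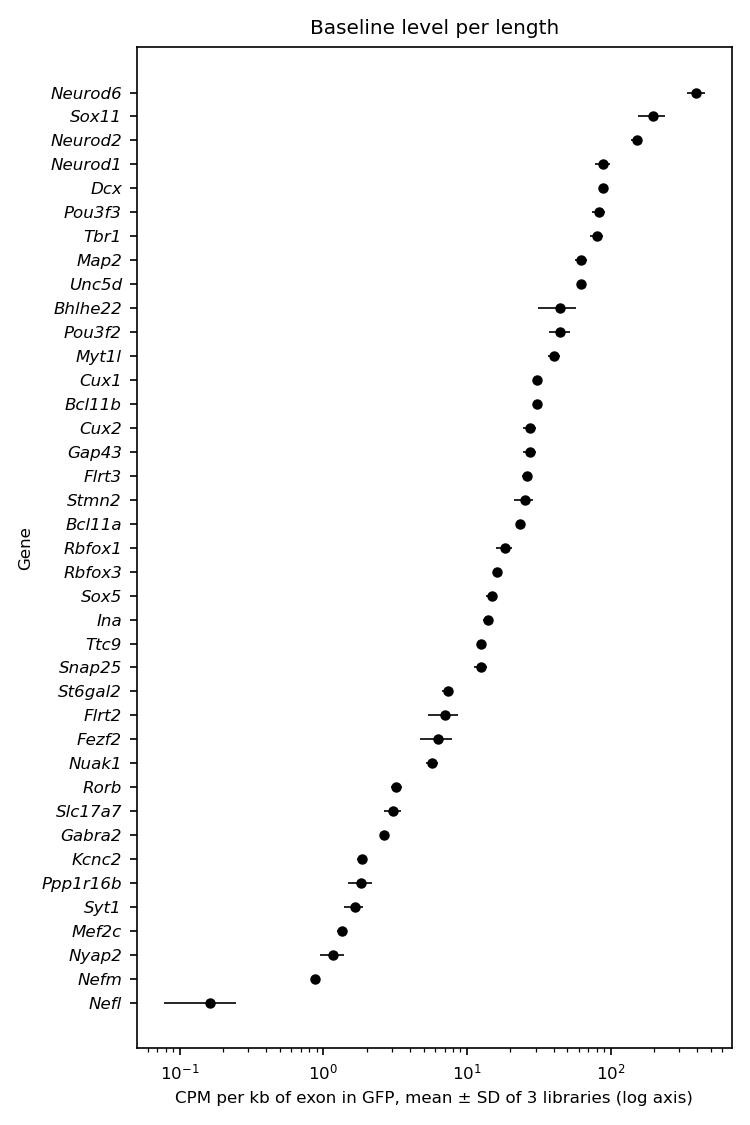
Level of each of the 39 genes in the 3 GFP libraries, as CPM per kb of merged exon on a log axis, with points at the mean and bars for the SD. Neurod6, Sox11 and Neurod2 lie at the top and Nefm and Nefl at the bottom.

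Most of these genes had lower values in cells that received GemC1 than in cells with the reporter alone. Of the 39 genes, 37 had a log2 fold change below 0 against GFP, where 50.1% of all genes tested did, and the median was -0.35 against -0.0004 over all genes. In 27 members (69.2%) every GemC1 library lay below every GFP library, a pattern found in 11.7% of all genes tested. In all, 15 members (38.5%) were called lower at an adjusted p under 0.05 by the edgeR quasi-likelihood test and 0 were called higher, where 1.32% of all genes tested were called lower, 3.86% higher and 5.19% in either direction. At an unadjusted p under 0.05 the test gave 26 lower and 0 higher, and DESeq2 called 17 lower and 0 higher. Of all 33353 genes in DESeq2, 658 were called lower and 1159 higher. The share over all genes at an unadjusted p is not given here or below. The members were proposed with this contrast in view, so these shares describe the list and support nothing about it. The number called depended on the libraries: without GemC1 replicate 1, 2 or 3 it was 8, 5 or 9, without GFP replicate 2 it was 4, and without GFP replicate 3 it was 3. Over all genes tested the number called lower also fell, from 259 to 162, 161 and 214 without GemC1 replicate 1, 2 and 3. Without GFP replicate 2 or 3 it fell to 42 or 32.

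In cells that received Mcidas, 1 of these genes was called against GFP. The median log2 fold change was -0.14, with 27 of 39 members below 0 where 55.0% of all genes tested were. Mef2c alone (1 member, 2.56%) was called higher, where 4.03% of all genes tested were, and 0 were called lower by edgeR, where 0.327% of all genes tested were (4.35% in either direction). At an unadjusted p under 0.05 the edgeR test gave 9 members lower and 4 higher, and DESeq2 called 1 lower and 1 higher. Of all 33353 genes in DESeq2, 112 were called lower and 1077 higher. Every Mcidas library lay below every GFP library for 8 members (20.5%, against 8.87% of all genes tested) and above for 5 (12.8%, against 10.7%). Both comparisons use the same 3 GFP libraries, so they are not independent of each other. Mcidas against GFP was likewise among the results known when the members were chosen, so its calls are given as a description.

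Set directly against each other, the GemC1 and Mcidas libraries gave a log2 fold change below 0 in 36 of 39 members, where 50.6% of all genes tested were, with a median log2 fold change of -0.19. St6gal2, Gabra2, Ttc9 and Ina, 4 members of 39 (10.3%), were called lower and 0 higher, where edgeR called 7 of all 19572 genes lower (0.0358%) and 3 higher (0.0153%), together 0.0511%. At an unadjusted p under 0.05 edgeR gave 13 members lower and 0 higher, and DESeq2 called 11 lower and 0 higher. DESeq2 called far more genes than edgeR in this contrast, 304 of 33353 lower and 195 higher. Every GemC1 library lay below every Mcidas library in 11 members (28.2%, against 7.64% of all genes tested) and above in 0 (against 9.07%). In 10 members (25.6%) every GemC1 library lay below all 6 other libraries, where 3.73% of all genes tested did. This contrast is also among the results known when the list was drawn up, and it is given as a description. The call of 4 fell to 0 with the fit on the 6 libraries compared alone, to 1 without GemC1 replicate 3 or any GFP replicate, to 0 without GemC1 replicate 2 or Mcidas replicate 2, and to 2 without GemC1 replicate 1 or Mcidas replicate 1 or 3. Over all genes tested, edgeR called 2 lower with those 6 libraries alone and 1 to 8 with each library left out.

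**Figure D2:**
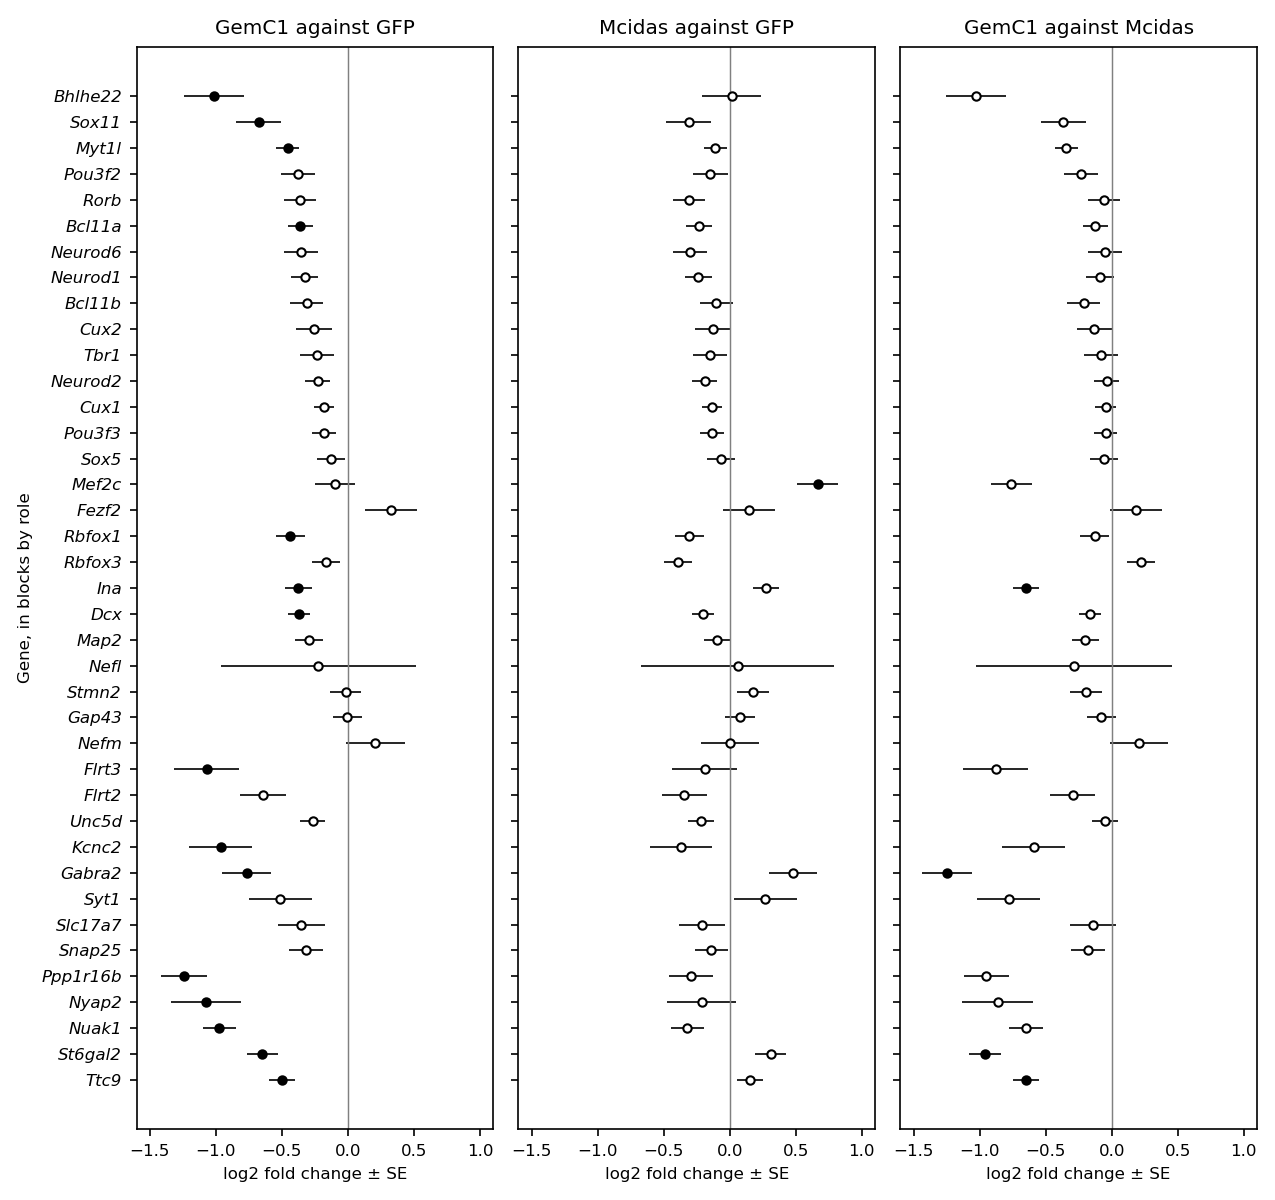
Log2 fold change of each of the 39 genes in the 3 comparisons, with bars for the SE and filled points for genes called at an adjusted p under 0.05. In the left panel 37 of 39 points lie below 0, in the middle panel 27, and in the right panel 36.

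All 5 signalling proteins and enzymes were called lower in GemC1 against GFP, where 1.32% of all genes tested were, with a median log2 fold change of -0.97. Since the members were chosen with this contrast known, nothing is read from that count. Gene positions are given on GRCm38 (mm10). Ppp1r16b, a membrane-bound regulatory subunit of a protein phosphatase (chr2:158665398-158766334, plus strand), was at 13.8, 15.1 and 19.6 CPM in the GFP libraries, 7.79, 6.50 and 6.18 CPM in the GemC1 libraries and 13.8, 12.7 and 13.0 CPM in the Mcidas libraries. Its GemC1 libraries lay below all 6 others, and the log2 fold change was -1.24 ± 0.17 (SE) against GFP and -0.95 ± 0.17 against Mcidas. Nuak1, an AMPK-related kinase that acts in axon branching (chr10:84370905-84440597, minus strand), was at 29.1, 32.4 and 35.1 CPM in the GFP libraries, 17.0, 15.04 and 17.2 CPM in the GemC1 libraries and 28.1, 26.4 and 22.7 CPM in the Mcidas libraries. Its 3 groups did not overlap, with GemC1 lowest, Mcidas between and GFP highest, and the GemC1 fold against GFP was -0.97 ± 0.13. Nyap2, an adaptor of phosphoinositide 3-kinase signalling in neurons (chr1:81076950-81341764, plus strand), was at 12.0, 14.2 and 17.5 CPM in the GFP libraries, 4.69, 6.06 and 10.0 CPM in the GemC1 libraries and 15.7, 11.8 and 10.3 CPM in the Mcidas libraries. Its GemC1 libraries were again the lowest 3 of 9, at -1.07 ± 0.27 against GFP, with the closest approach between GemC1 replicate 3 and Mcidas replicate 3. Mcidas against GFP gave -0.29 ± 0.17 for Ppp1r16b, -0.32 ± 0.13 for Nuak1 and -0.21 ± 0.26 for Nyap2, and edgeR called none of these 3.

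St6gal2 and Ttc9, the other signalling and enzyme genes, had their lowest values with GemC1 and their highest with Mcidas. St6gal2, a sialyltransferase that caps glycans (chr17:55445382-55514581, plus strand), was at 51.0, 52.1 and 59.0 CPM in the GFP libraries, 30.9, 31.3 and 41.2 CPM in the GemC1 libraries and 66.6, 69.1 and 65.3 CPM in the Mcidas libraries. All GemC1 libraries were below and all Mcidas libraries above the GFP libraries, with folds of -0.65 ± 0.12 for GemC1 and 0.31 ± 0.12 for Mcidas against GFP. Ttc9, a tetratricopeptide repeat protein (chr12:81631249-81667557, plus strand), was at 59.3, 58.4 and 63.1 CPM in the GFP libraries, 48.0, 39.2 and 40.9 CPM in the GemC1 libraries and 66.5, 64.6 and 70.1 CPM in the Mcidas libraries. The 3 groups kept the same order without overlap, at -0.50 ± 0.10 for GemC1 and 0.15 ± 0.10 for Mcidas. For the Mcidas side alone the edgeR adjusted p was 0.243 for St6gal2 and 0.601 for Ttc9, so neither was called higher with Mcidas than with the reporter. Directly between the factors the folds were -0.96 ± 0.12 and -0.65 ± 0.10, and these calls were lost in 3 and 10 of 15 alternatives.

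Gabra2 and Ina followed the same order. Gabra2 (chr5:70957597-71095849, minus strand) codes for an alpha subunit of the GABA-A receptor, the chloride channel that young neurons express before most synapses form, and was at 19.0, 20.9 and 20.7 CPM in the GFP libraries, 13.7, 11.8 and 10.2 CPM in the GemC1 libraries and 24.3, 37.2 and 22.8 CPM in the Mcidas libraries. GemC1 lay below and Mcidas above the GFP range without overlap, Mcidas replicate 2 standing above the other Mcidas libraries, and GemC1 against Mcidas gave -1.25 ± 0.19. Ina, the neuronal intermediate filament protein alpha-internexin (chr19:47014698-47025327, plus strand), was at 46.1, 41.5 and 47.6 CPM in the GFP libraries, 36.9, 35.7 and 31.7 CPM in the GemC1 libraries and 52.5, 54.9 and 56.2 CPM in the Mcidas libraries. Its 3 groups did not overlap either, with folds of -0.37 ± 0.10 for GemC1 against GFP and -0.65 ± 0.10 for GemC1 against Mcidas. Mcidas against GFP gave 0.48 ± 0.18 for Gabra2 (edgeR adjusted p = 0.257) and 0.28 ± 0.10 for Ina (edgeR adjusted p = 0.203). Of 15 alternatives, the GemC1 call against GFP was lost in 5 for Gabra2 and 12 for Ina. The call of GemC1 against Mcidas was lost in 9 for Gabra2 and 11 for Ina. Ina shares 456 exonic bases with Nt5c2 on the opposite strand, 14.1% of its exons, and since the library kits keep no strand, reads from that stretch cannot be told apart.

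**Figure D3:**
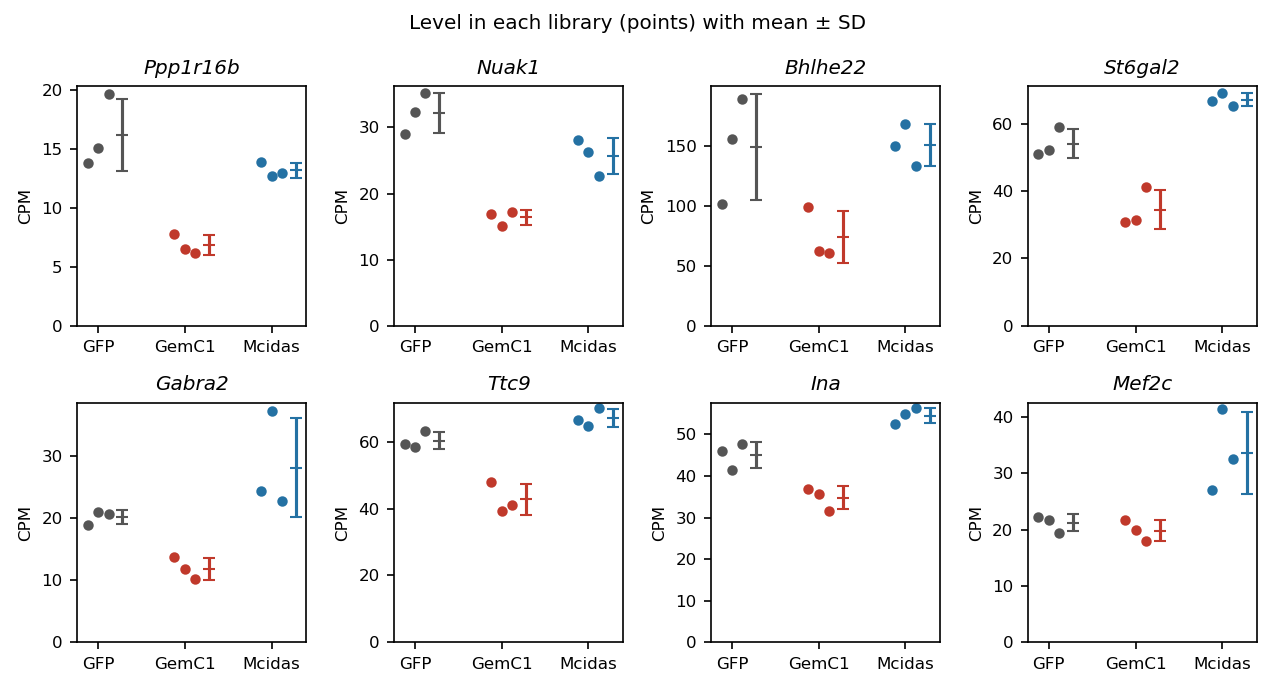
CPM of 8 members in each of the 9 libraries (points), with the mean and SD of each group beside them. St6gal2, Gabra2, Ttc9 and Ina stand lowest with GemC1, between with GFP and highest with Mcidas, whereas Mef2c stands apart only in the Mcidas libraries.

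Mef2c, a MADS-box factor of maturing excitatory neurons (chr13:83504034-83667080, plus strand), was the only member called higher in any of the 3 comparisons. Its level was 22.3, 21.8 and 19.5 CPM in the GFP libraries, 21.6, 19.9 and 17.9 CPM in the GemC1 libraries and 27.0, 41.4 and 32.5 CPM in the Mcidas libraries. Mcidas libraries lay above all 6 others, while GemC1 and GFP overlapped. The Mcidas fold against GFP was 0.67 ± 0.15 (edgeR adjusted p = 0.0252), and GemC1 against GFP gave -0.10 ± 0.15. The call was lost without Mcidas replicate 2 or 3 or any 1 of the GFP libraries, with adjusted p up to 0.148 over the 15 alternatives. Mef2c is also a gene of microglia, the brain's macrophages. The 20 genes of the microglia and macrophage list summed to between 34.8 and 51.6 CPM in the GFP libraries, 54.2 and 82.1 CPM in the Mcidas libraries and 91.3 and 130.7 CPM in the GemC1 libraries. Mef2c was thus highest in the group whose microglial sum was between the other groups, and the part of such cells in its value was not tested.

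The promoter windows of these 5 genes are shown because they were the members called between the 2 factors (St6gal2, Gabra2, Ttc9 and Ina) or between Mcidas and GFP (Mef2c). Each is the 250 bases upstream of the RefSeq start of the gene (GRCm38.p6), read 5′ to 3′ on the gene's strand, in lower case with every match to the E-box CANNTG in capitals. E-boxes are the motifs bound by bHLH proteins such as the Neurod factors. The windows lie at chr17:55445132-55445381 (plus strand), chr5:71095850-71096099 (minus strand), chr12:81630999-81631248 (plus strand), chr19:47014431-47014680 (plus strand) and chr13:83503784-83504033 (plus strand).
St6gal2: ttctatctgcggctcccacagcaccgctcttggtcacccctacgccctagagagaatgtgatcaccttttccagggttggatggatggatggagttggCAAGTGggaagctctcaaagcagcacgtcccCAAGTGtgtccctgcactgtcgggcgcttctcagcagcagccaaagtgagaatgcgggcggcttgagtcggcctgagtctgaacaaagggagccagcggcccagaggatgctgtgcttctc
Gabra2: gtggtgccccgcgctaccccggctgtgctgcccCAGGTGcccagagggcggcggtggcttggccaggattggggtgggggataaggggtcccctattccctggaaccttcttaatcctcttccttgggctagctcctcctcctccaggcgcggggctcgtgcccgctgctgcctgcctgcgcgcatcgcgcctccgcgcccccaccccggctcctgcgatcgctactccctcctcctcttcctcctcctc
Ttc9: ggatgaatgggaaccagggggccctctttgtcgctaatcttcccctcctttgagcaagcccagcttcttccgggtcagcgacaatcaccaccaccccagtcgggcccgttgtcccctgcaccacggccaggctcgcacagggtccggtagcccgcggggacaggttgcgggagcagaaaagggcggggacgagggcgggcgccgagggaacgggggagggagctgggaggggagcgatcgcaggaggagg
Ina: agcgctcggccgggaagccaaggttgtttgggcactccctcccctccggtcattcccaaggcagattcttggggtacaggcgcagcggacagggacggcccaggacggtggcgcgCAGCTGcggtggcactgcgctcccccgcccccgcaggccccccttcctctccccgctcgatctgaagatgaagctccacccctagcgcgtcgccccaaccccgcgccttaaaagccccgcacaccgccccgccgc
Mef2c: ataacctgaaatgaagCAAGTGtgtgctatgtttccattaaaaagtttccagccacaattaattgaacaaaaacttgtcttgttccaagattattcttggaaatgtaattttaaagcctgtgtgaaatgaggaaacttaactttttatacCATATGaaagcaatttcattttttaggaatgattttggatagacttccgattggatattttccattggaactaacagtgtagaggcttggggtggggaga

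St6gal2 and Mef2c held 2 matches to CANNTG each, Gabra2 and Ina 1 each, and Ttc9 0. The windows differed in composition, from 33.6% G and C in Mef2c to 70.8% in Ina. A RefSeq promoter was matched for 32 of the 39 members, with 1 window per member, at the RefSeq start nearest the annotated gene start. That RefSeq start lay 834871 bases from the annotated start for Sox5 and 150556 for Rbfox3. Of the 32, 18 (56.2%) held CANNTG, where 66.2% of all 32851 windows did. The full set counts every RefSeq start of a gene, so the 2 sets are not alike. CAGATG or its reverse complement, which lies within CANNTG, was in 3 of the 32 (9.38%) and in 14.4% of all windows. These 2 were described from 15 short motifs counted on both strands in the same windows, after all counts had been seen. Among the rest, CATATG, another form of CANNTG, was in 5 of 32 (15.6%, against 3.46% of all windows) and the GC box GGGCGG in 17 (53.1%, against 32.7%). No test was made on any motif, and a match is a string of letters, not a bound site. Median G and C content was 57.6% in the members' windows and 52.4% in all windows.

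Among the 17 transcription factors, edgeR called 4 lower with GemC1 and 0 higher (11 and 0 at an unadjusted p under 0.05). Over all genes tested, edgeR called 1.32% lower and 3.86% higher. DESeq2 called 5 and 0 of the 17, and the median fold was -0.31. The members were chosen with this contrast known, so nothing is read from the counts by role. Bhlhe22, a bHLH repressor in the identity of projection neurons (chr3:18054174-18057517, plus strand), was at 102, 156 and 189 CPM in the GFP libraries, 99.1, 62.0 and 60.5 CPM in the GemC1 libraries and 150.0, 168 and 133 CPM in the Mcidas libraries. The GemC1 libraries were below all others, although GemC1 replicate 1 and GFP replicate 1 nearly met, and the fold was -1.01 ± 0.23 against GFP and -1.03 ± 0.23 against Mcidas. With Mcidas, Bhlhe22 stood at 0.02 ± 0.22 against GFP. Sox11 (chr12:27334264-27342574, minus strand) was at 1364, 1536 and 2043 CPM in the GFP libraries, 963, 1104 and 1025 CPM in the GemC1 libraries and 1636, 1353 and 998 CPM in the Mcidas libraries. Its GemC1 libraries were all below the GFP libraries, at -0.68 ± 0.17, and the Mcidas libraries spread over both ranges. GFP replicate 3 was the highest of the 9. Myt1l, a zinc finger factor that represses non-neuronal genes in neurons (chr12:29528384-29923213, plus strand), was at 507, 583 and 612 CPM in the GFP libraries, 429, 409 and 405 CPM in the GemC1 libraries and 515, 497 and 566.4 CPM in the Mcidas libraries. GemC1 lay below all 6 other libraries with little spread, at -0.45 ± 0.09, and Mcidas overlapped GFP at -0.11 ± 0.09. Bcl11a (chr11:24078056-24174123, plus strand) was at 296, 308 and 318 CPM in the GFP libraries, 252, 223 and 243 CPM in the GemC1 libraries and 294, 263 and 227 CPM in the Mcidas libraries. Its paralog Bcl11b, a factor of subcerebral projection neurons, was at 230.5, 254 and 261 CPM in the GFP libraries, 228, 180.2 and 192 CPM in the GemC1 libraries and 272, 232 and 191 CPM in the Mcidas libraries. In both the GemC1 libraries lay below the GFP libraries, at -0.36 ± 0.09 for Bcl11a, which was called, and -0.31 ± 0.12 for Bcl11b, which was not. The difference between these paralogs was not tested. Calls against GFP were lost in 8 of 15 alternatives for Bcl11a, 8 for Sox11, 6 for Bhlhe22 and 2 for Myt1l.

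Factors of layer identity were given as levels whether or not they were called. Tbr1, a T-box factor of deep-layer neurons, was at 403, 422 and 495 CPM in the GFP libraries, 354, 379 and 391 CPM in the GemC1 libraries and 485, 379.6 and 325 CPM in the Mcidas libraries. GemC1 lay below GFP at -0.23 ± 0.13 on the log2 scale, and the Mcidas libraries spanned both ranges. Fezf2 was at 23.5, 20.1 and 13.9 CPM in the GFP libraries, 28.1, 23.1 and 21.1 CPM in the GemC1 libraries and 16.9, 23.3 and 23.6 CPM in the Mcidas libraries. All 3 groups overlapped, and the fold of 0.33 ± 0.20 for GemC1 against GFP was 1 of only 2 above 0. The remaining 10 factors were Neurod1, Neurod2, Neurod6, Cux1, Cux2, Pou3f2, Pou3f3, Rorb, Sox5 and Mef2c, and in GemC1 against GFP their folds ran from -0.38 (Pou3f2) to -0.10 (Mef2c). None of these 10 was called by edgeR, and DESeq2 called Neurod1 lower. Cux1, Cux2, Pou3f2, Pou3f3 and Rorb mark upper-layer neurons, born around the time of electroporation and after, and lay between -0.38 and -0.18. Neurod1, Neurod2 and Neurod6 lay between -0.35 and -0.23, with every GemC1 library below every GFP library in each. With Mcidas these 3 lay between -0.30 and -0.19 and overlapped GFP. Some reads of Neurod1 and Sox5 cannot be told apart from neighbours: Neurod1 shares 201 exonic bases with Cerkl (7.4% of its exons) and Sox5 shares 1330 with Sox5os1 (9.3%).

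**Figure D4:**
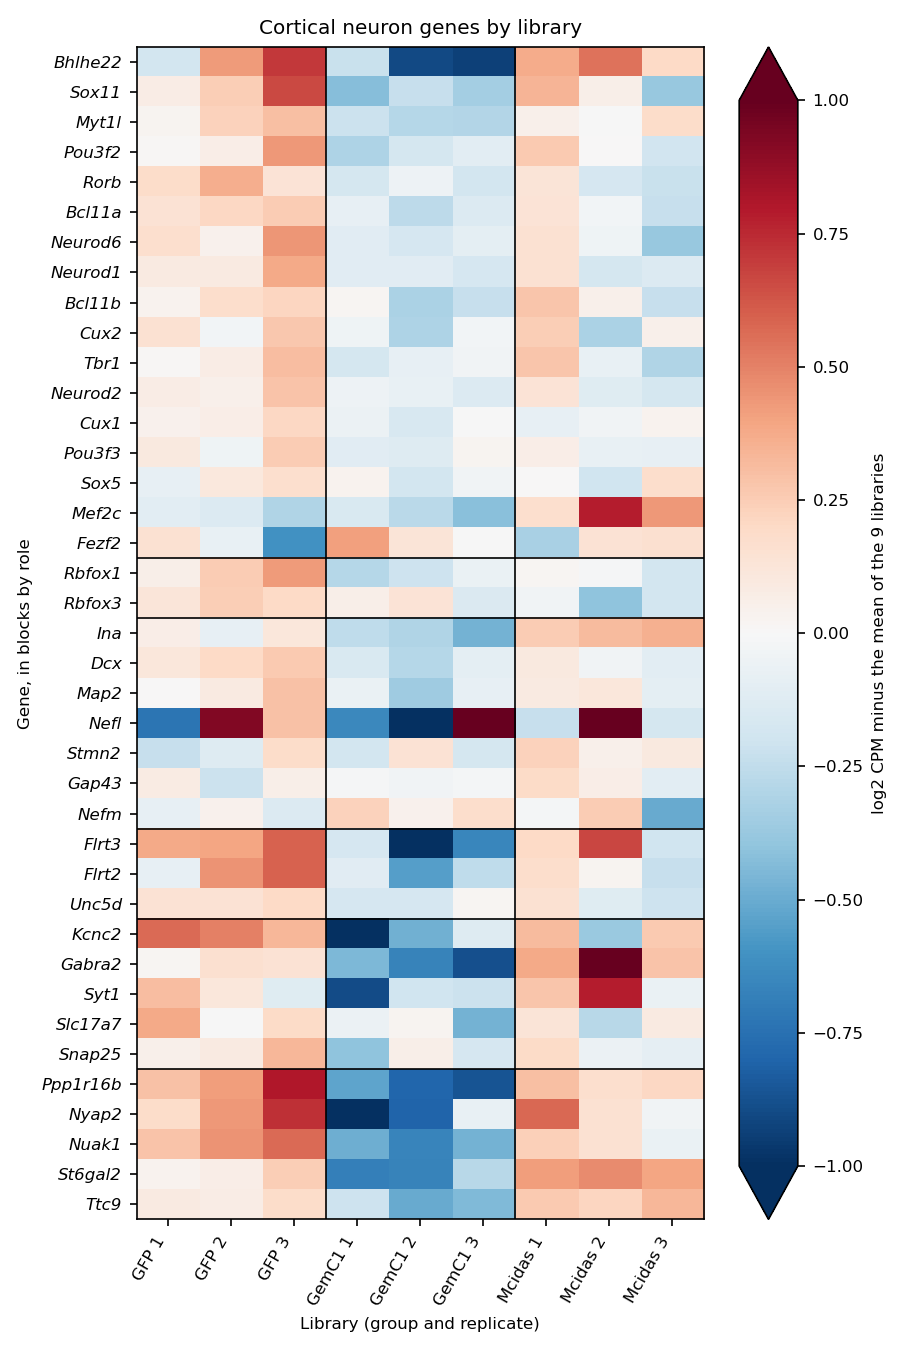
Log2 CPM of each of the 39 genes in each of the 9 libraries, as the difference from that gene's mean over the 9 libraries, with genes in blocks by role. GemC1 columns are below the mean for most genes, and GFP replicate 3 is the highest GFP library for 28 of 39.

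Of the 7 genes of the cytoskeleton and of axon growth, 2 were called lower with GemC1, Ina and Dcx, where 1.32% of all genes tested were. The median fold was -0.22. Dcx (chrX:143855842-143933311, minus strand) was at 1053, 1118 and 1170 CPM in the GFP libraries, 878, 798 and 911 CPM in the GemC1 libraries and 1042, 952 and 907 CPM in the Mcidas libraries. All GemC1 and all Mcidas libraries lay below the GFP libraries, at -0.37 ± 0.08 for GemC1 and -0.20 ± 0.08 for Mcidas (edgeR adjusted p = 0.31). Map2, the microtubule protein of dendrites, was at 939.8, 998 and 1144 CPM in the GFP libraries, 895, 730.3 and 886 CPM in the GemC1 libraries and 997, 1012 and 876 CPM in the Mcidas libraries. GemC1 lay below GFP at -0.30 ± 0.10, GemC1 replicate 2 being the lowest of the 9. Stmn2 and Gap43, proteins of growing axons, gave -0.02 and -0.003 for GemC1 against GFP and 0.18 and 0.08 for Mcidas, with overlap in all 4 cases. Nefm, the medium neurofilament protein, was at 4.94, 5.378 and 4.77 CPM in the GFP libraries, 6.13, 5.385 and 5.92 CPM in the GemC1 libraries and 5.16, 6.24 and 3.68 CPM in the Mcidas libraries. It was the only member whose GemC1 libraries all lay above the GFP libraries, the nearest pair being almost equal, at 0.21 ± 0.22 and not called by edgeR or DESeq2. Nefl, the light neurofilament protein, was at 0.265, 0.835 and 0.540 CPM in the GFP libraries, 0.282, 0.136 and 0.987 CPM in the GemC1 libraries and 0.374, 0.944 and 0.390 CPM in the Mcidas libraries. These Nefl levels rest on 4 to 34 counts per library, and the groups overlap. Nefl and Nefm share 1108 exonic bases on opposite strands, 32.8% of the exons of Nefl, where reads cannot be told apart. Of the neuronal filament genes, then, Ina had lower values with GemC1 and Nefm had not, while Nefl was at too low a level to set beside them. The call of Ina against GFP was lost in 12 of 15 alternatives, though its sign was kept in all.

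Both RNA-binding members regulate splicing in neurons. Rbfox1 (chr16:5885355-7411526, plus strand) was at 70.3, 80.4 and 90.9 CPM in the GFP libraries, 55.4, 58.4 and 64.7 CPM in the GemC1 libraries and 68.6, 67.1 and 59.4 CPM in the Mcidas libraries. Every GemC1 and every Mcidas library lay below every GFP library, at -0.44 ± 0.11 for GemC1 and -0.31 ± 0.11 for Mcidas. Rbfox3, the NeuN antigen of postmitotic neurons, was at 90.1, 98.0 and 95.1 CPM in the GFP libraries, 86.2, 91.3 and 75.1 CPM in the GemC1 libraries and 80.8, 62.7 and 72.8 CPM in the Mcidas libraries. Here the Mcidas libraries lay below the GFP libraries at -0.39 ± 0.11 (edgeR adjusted p = 0.0648), and GemC1 overlapped GFP at -0.17 ± 0.11. Rbfox3 was the 1 member that DESeq2 called lower with Mcidas.

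Of the 3 adhesion and guidance genes, edgeR called 1, Flrt3, lower with GemC1, where it called 1.32% of all genes tested lower. DESeq2 called 2 of the 3, Flrt3 and Flrt2. Flrt3, a leucine-rich repeat protein that binds Unc5 receptors and latrophilins in migrating cortical neurons (chr2:140650914-140671469, minus strand), was at 120.5, 122 and 139.5 CPM in the GFP libraries, 82.4, 40.4 and 59.1 CPM in the GemC1 libraries and 106, 147 and 80.6 CPM in the Mcidas libraries. GemC1 lay below GFP at -1.07 ± 0.25, with GemC1 replicate 1 just above Mcidas replicate 3. Its paralog Flrt2 was at 40.1, 58.0 and 64.1 CPM in the GFP libraries, 39.3, 29.1 and 35.7 CPM in the GemC1 libraries and 48.1, 43.3 and 36.2 CPM in the Mcidas libraries. The groups of Flrt2 came within 1 CPM of each other, and its fold of -0.64 ± 0.17 was not called by edgeR. Unc5d, a netrin receptor that also binds Flrt proteins, gave -0.27 ± 0.10 for GemC1 and -0.22 ± 0.10 for Mcidas, with every GemC1 library below every GFP library. Unc5d was called by neither tool.

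Among the genes of synapses and channels, 2 of 5, Gabra2 and Kcnc2, were called lower with GemC1, where 1.32% of all genes tested were. The median fold of the 5 was -0.51. Kcnc2, a voltage-gated potassium channel of fast-firing neurons (chr10:112271121-112467024, plus strand), was at 14.2, 13.6 and 12.1 CPM in the GFP libraries, 4.79, 6.88 and 8.75 CPM in the GemC1 libraries and 11.9, 7.40 and 11.5 CPM in the Mcidas libraries. GemC1 lay below GFP at -0.96 ± 0.24, and Mcidas lay below GFP as well at -0.37 ± 0.23 (edgeR adjusted p = 0.604). Slc17a7 was at 18.7, 14.3 and 16.4 CPM in the GFP libraries, 13.8, 14.6 and 10.3 CPM in the GemC1 libraries and 15.7, 11.8 and 15.2 CPM in the Mcidas libraries. Its groups overlapped, at -0.35 ± 0.18 for GemC1 against GFP. The vesicle fusion proteins Syt1 and Snap25 gave -0.51 ± 0.24 and -0.32 ± 0.13, neither called by edgeR or DESeq2. Syt1 with Mcidas was at 0.27 ± 0.24, so the mean values of the 2 factors lay on either side of GFP, though Mcidas and GFP overlapped.

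Replicates of a group were not alike across the members, which bears on each difference above. As the median over members of the log2 difference from the GFP mean (with 0.1 CPM added), the GemC1 libraries stood at -0.33, -0.38 and -0.32 and the GFP libraries at -0.08, -0.02 and 0.11. The Mcidas libraries spread from -0.03 in replicate 1 through -0.21 to -0.29 in replicate 3, so that Mcidas replicate 1 was near the GFP libraries and replicate 3 near the GemC1 libraries. GFP replicate 3 was the highest GFP library for 28 of 39 members, where 36.5% of all genes tested had it highest. Mcidas replicate 1 was the highest Mcidas library for 24 of 39, where the share over all genes was 35.5%. Without GFP replicate 3 the GemC1 median moved from -0.35 to -0.27, and without Mcidas replicate 1 the median of GemC1 against Mcidas moved from -0.19 to -0.11. The summed level of the 39 genes was 7956 to 8418 CPM in the GemC1, 8501 to 10370 CPM in the Mcidas and 9776 to 11840 CPM in the GFP libraries.

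**Figure D5:**
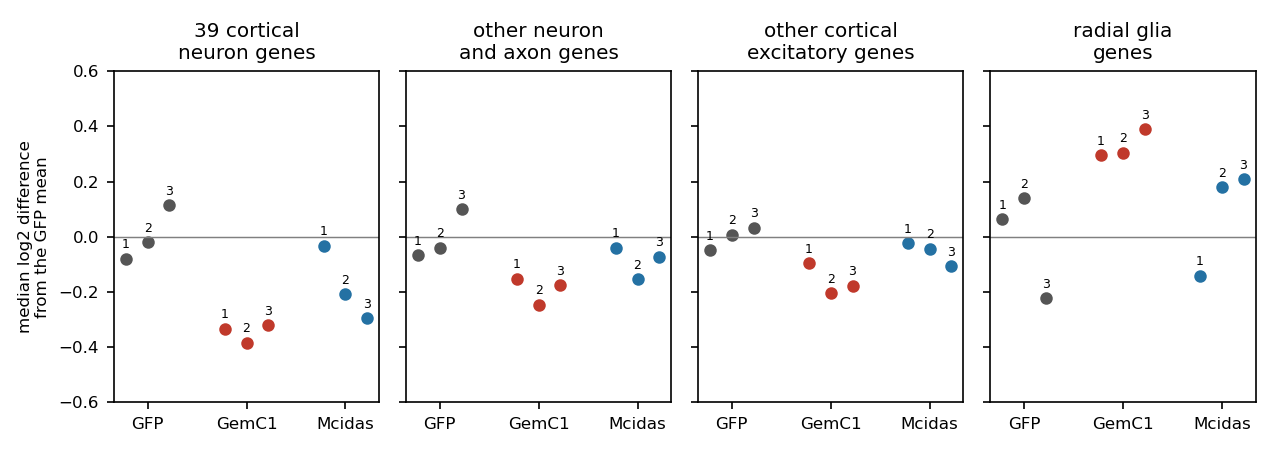
Median log2 difference from the GFP mean in each of the 9 libraries, for the 39 cortical neuron genes, for 2 lists of other neuronal genes and for radial glia genes. GemC1 libraries lie between -0.38 and -0.32 for the cortical neuron genes and between 0.30 and 0.39 for radial glia genes.

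Radial glia genes, by contrast, had higher values in the GemC1 libraries. The lists in this paragraph, like the cortical neuron genes, were chosen with earlier results of these data known. Their calls and p-values are therefore given as a description, and they are no independent evidence on the cortical neuron genes. Of 28 genes, edgeR called 6 higher and 0 lower in GemC1 against GFP (12 and 1 at an unadjusted p under 0.05). Over all genes tested, edgeR called 3.86% higher and 1.32% lower. DESeq2 called 9 of the 28 higher and 1, Hes1, lower. Their per-library medians were 0.30, 0.30 and 0.39, against 0.06, 0.14 and -0.22 in the GFP libraries and -0.14, 0.18 and 0.21 in the Mcidas libraries. GFP replicate 3 was thus the lowest GFP library for radial glia genes and the highest for most cortical neuron genes. Fgfr2, a growth factor receptor of progenitors, rose by 0.64 ± 0.11 on the log2 scale with GemC1 (edgeR adjusted p = 0.00556), and Pdpn rose by 0.94 ± 0.18 (edgeR adjusted p = 0.00881). The number of radial glia genes called was 2 without GemC1 replicate 2 and 3 without GFP replicate 3. Over all genes tested, 584 and 443 were then called higher, against 756 with all 9 libraries. With Mcidas, Fgfr2 also rose, by 0.79 ± 0.11 (edgeR adjusted p = 0.000832), while 1 gene, the Notch target Hes5, fell by 0.59 on the log2 scale (edgeR adjusted p = 0.0337), a call lost in 7 of 15 alternatives. Among 16 genes of intermediate progenitors, the step between radial glia and neurons, the proneural factor Neurog2 fell by 0.52 ± 0.11 with GemC1 (edgeR adjusted p = 0.02), Hes6 rose by 0.31 ± 0.08 (edgeR adjusted p = 0.0498), and the other 14 were not called by edgeR. The calls of Neurog2 and Hes6 were lost in 5 and 10 of 15 alternatives, and DESeq2 called 1 more gene lower, Elavl2. With Mcidas, edgeR called 2 genes of this list lower and 0 higher, where 0.327% of all genes tested were called lower and 4.03% higher. An unadjusted p under 0.05 gave 1 of the list higher and DESeq2 called 0 higher. The 2 lower genes were Kif26b, which fell by 1.02 ± 0.16 on the log2 scale (edgeR adjusted p = 0.00153), and Tac2, which fell by 3.01 ± 0.76 (edgeR adjusted p = 0.0429) from 1.71 ± 0.03 CPM in GFP to 0.21 ± 0.14 CPM. The call of Kif26b was kept in all 15 alternatives, while that of Tac2 was lost in 6, which each left out 1 library: GemC1 replicate 1, Mcidas replicate 2 or 3, or any of the 3 GFP replicates (adjusted p up to 0.187). Of the 19 microglia genes tested, 11 were called higher with GemC1, where 3.86% of all genes tested were. Among the 11 were the complement gene C1qb, higher by 2.60 ± 0.37 on the log2 scale (edgeR adjusted p = 0.00101), and the receptor P2ry12, by 2.88 ± 0.47 (edgeR adjusted p = 0.00277). With Mcidas, edgeR called 2 of the 19 higher, where 4.03% of all genes tested were. These were C1qb, by 2.08 ± 0.37 (edgeR adjusted p = 0.00422), and P2ry12, by 1.81 ± 0.46 (edgeR adjusted p = 0.0459). That call of P2ry12 was lost in 8 of 15 alternatives. The part of these cell types in the lower cortical neuron genes was not tested.

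Neuronal genes outside the 39 had a smaller median difference with GemC1. The 39 were chosen with this contrast in view, so nothing is read from their larger median. The lists of other genes were also chosen with earlier results of these data known, so their calls are given as a description. The difference between the lists was not tested. Of 35 tested genes of general neuron differentiation and axons, edgeR called 4 lower with GemC1 and 0 higher (DESeq2 7 and 0). Over all genes tested, edgeR called 1.32% lower and 3.86% higher. The median log2 fold change of the 35 was -0.19, against -0.35 for the 39 genes and -0.0004 for all genes. L1cam, an axonal adhesion protein, fell by 0.55 ± 0.10 on the log2 scale (edgeR adjusted p = 0.00642), and this call stood in all 15 alternatives. Elavl3, a neuronal RNA-binding protein, fell by 0.55 ± 0.12 (edgeR adjusted p = 0.0183). The remaining 2, named after their values were seen because the count is small, were the guidance receptor Robo2, which fell by 0.47 ± 0.10 (edgeR adjusted p = 0.0183), and Ncam1, which fell by 0.40 ± 0.11 (edgeR adjusted p = 0.0472). Without GFP replicate 2 or 3 only 1 of this list was called, and without GemC1 replicate 2 it was 2. Over all genes tested, 42, 32 and 161 were then called lower, against 259 with all 9 libraries. With Mcidas 0 were called in either direction by edgeR or DESeq2, where edgeR called 4.35% of all genes tested. An unadjusted p under 0.05 gave 5 of the list lower and 1 higher.

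Of 33 tested other genes of cortical excitatory neurons, 2 were called lower and 1 higher with GemC1, with a median of -0.11. Over all genes tested, 1.32% were called lower and 3.86% higher. This list and the list of cortical interneurons were likewise chosen with earlier results known, and their calls are a description. Sema3c, a guidance molecule named after its value was seen, fell by 0.37 ± 0.09 on the log2 scale (edgeR adjusted p = 0.044), a call lost in 9 of 15 alternatives. Camk2a, a kinase of excitatory synapses, rose by 1.44 ± 0.29 with GemC1 (edgeR adjusted p = 0.0109) and by 2.02 ± 0.29 with Mcidas (edgeR adjusted p = 0.00079), from 1.62 ± 0.49 CPM in GFP to 4.42 ± 0.95 and 6.60 ± 1.21 CPM. The GemC1 call of Camk2a was lost without GFP replicate 3, and the Mcidas call was lost in none of the 15. With Mcidas, Pcp4 fell by 0.65 ± 0.16 (edgeR adjusted p = 0.0336) and Slc17a6, the vesicular glutamate transporter of young neurons, named after its value was seen, by 0.40 ± 0.10 (edgeR adjusted p = 0.037), both calls being lost in 6 of 15 alternatives. Of the 17 tested genes of cortical interneurons, 0 were called by edgeR in GemC1 against GFP, where 5.19% of all genes tested were called in either direction. An unadjusted p under 0.05 gave 1 of the 17 higher and DESeq2 called 1 higher. With Mcidas, edgeR called 1 of the 17 lower and 0 higher, where 0.327% of all genes tested were called lower. It was Htr3a, at 0.93 ± 0.13 CPM against 2.41 ± 0.69 CPM in GFP (edgeR adjusted p = 0.0393).

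The rule that gave the members did not use the span of a gene on the chromosome. The median span of the 39 genes was 77.5 kb from start to end, against 25.2 kb over the 14162 protein-coding genes tested, and 15 of 39 (38.5%) exceed 100 kb against 15.5%. Both comparison lists had longer medians than the members, with no test made: 87.8 kb in the other neuron differentiation and axon genes (48.6% over 100 kb) and 134 kb in the other cortical excitatory neuron genes (57.6%). The range is wide, from 3.34 kb for Bhlhe22 to 1530 kb for Rbfox1. Lower genes were found at both ends, since Bhlhe22 and Rbfox1 were both called with GemC1. No test of length against fold change was made.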

How the data were processed

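The authors deposited 9 tables, 1 per library, of unnormalized counts for Ensembl gene identifiers, per the file headers; all values are whole numbers. Per the labels' protocols, RNA was amplified with SMART-Seq v4 and made into Nextera XT libraries, which do not mark strand. The submitters' processing notes list the build mm10 and the tools DESeq2 1.8.1, HTSeq 0.5.3 and STAR 2.5.2b, without their roles. The sources used here do not give the annotation release or the strand setting.

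Symbols, positions and exon lengths came from GENCODE M21 (GRCm38), and promoter sequences from RefSeq (GRCm38.p6). Counts were tested with edgeR 4.0.16 in R 4.3.3 (filterByExpr, minimum count 10 and minimum total 15, TMM factors from 0.9601 to 1.035, robust quasi-likelihood F test, two-sided, all 9 libraries in 1 fit with group as the term). Calls were made where the p adjusted by Benjamini-Hochberg over 19572 genes was under 0.05. The SE of a log2 fold change was derived from the F statistic, and CPM uses the TMM-scaled library size. The fit was tested on simulated data. No library was a copy of another: between replicates, chi-square divided by its degrees of freedom was 14.1 to 25.8.

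The members and the lists of other genes were chosen with earlier results of these data known. Values in all 9 libraries are given for members called in any comparison, their paralogs and 6 neuronal identity genes, and from each other list described, the 2 genes with the smallest adjusted p, except 1 gene that is not reported here. Alternatives were DESeq2 size factors, DESeq2 1.42.0, no or a stricter (minimum count 50) low-count filter, a replicate block, only the groups compared, and each library left out in turn. The same alternatives for genes outside the 39 were added after seeing the data.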

Additional observations from a re-analysis of the deposited data

How the results depend on the processing

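All called members kept the sign of their fold in all 15 alternatives, and Ppp1r16b, Nuak1 and St6gal2 kept their call in GemC1 against GFP in all 15. The other calls in that comparison were each lost in between 1 (Ttc9) and 12 (Ina) of the 15. Of the 39 members, 3, 8 and 8 changed sign in some alternative for GemC1 against GFP, for Mcidas against GFP and for GemC1 against Mcidas, none of them called there. In GemC1 against GFP the number called lower was 3 to 14 when each library was left out in turn, and the median log2 fold change was -0.38 to -0.27, the latter without GFP replicate 3. In those fits 32 to 267 of all genes tested were called lower, against 259 with all 9 libraries. In Mcidas against GFP, 1 member was called lower with DESeq2 and 1 with no low-count filter, and leaving out each library gave 0 to 1 lower and 0 to 1 higher. Over all genes, DESeq2 called 112 lower and the fit with no low-count filter 123. In GemC1 against Mcidas the number called lower was 11 with DESeq2, 7 with no low-count filter, 0 with only the groups compared and 0 to 2 with each library left out, and the median ran from -0.23 to -0.11, the latter without Mcidas replicate 1. Over all genes, DESeq2 called 304 lower there and the fit with no low-count filter 129. Leaving out a library also leaves fewer samples. Without Mcidas replicate 1, edgeR called 951 of all genes tested higher in Mcidas against GFP, against 788 with all 9 libraries. The cause of a change in calls was not tested for any alternative.

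With the replicate number as a block, 7 members were called lower in GemC1 against GFP and 1 in GemC1 against Mcidas. Over all genes tested, 147 and 3 were called lower with this block. The numbers did not pair the libraries: deviations from the group means correlated at -0.07 to 0.05 over the 9 same-numbered pairs, and 2 of 9 libraries correlated best with their own number. Depth limits Nefl, with 4 to 34 counts per library.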
